A study of Mus musculus with 15 samples.

Results

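The 9 complement components C1qa, C1qb, C1qc, C2, C3, C4b, C6, C7 and Cfb were described in ovaries of HSD17B1-KI and WT mice. They were taken by gene symbol from a table of 27907 genes, in which all 9 were found, and 44 other genes of the complement system in that table were read beside them. HSD17B1 is the steroid dehydrogenase that makes estradiol from estrone in granulosa cells. The HSD17B1-KI group was 7 females homozygous for the Ser143Ala change in the active site, made by CRISPR/Cas9 in the germ line and therefore present in every cell of the body. The WT group was 8 females, and both genotypes came from heterozygous parents. All mice were 6 months old and in estrus, and 1 stranded mRNA library was sequenced for each mouse from whole ovary. The mouse strain was not given in the sources used here. The libraries held 39092867 to 69972608 gene reads in HSD17B1-KI and 26544745 to 72362981 in WT. Hsd17b1 itself ranged from 5459 to 17386 normalized counts in HSD17B1-KI and from 6480 to 14111 in WT, which does not test the labels, since the mutation changes 1 amino acid and leaves the transcript in place.

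Complement is a cascade of proteins that tags cells and debris and can pierce membranes. C1q, a hexamer built from the A, B and C chains encoded by C1qa, C1qb and C1qc, starts the classical pathway by binding antibody or altered surfaces. C4b and C2 encode the proteins that form the classical C3 convertase, and Cfb encodes factor B of the alternative convertase. C3 is the central protein of all pathways, and C6 and C7 join C5b, C8 and C9 in the membrane attack complex. The liver makes most plasma complement, C1q comes mainly from macrophages, and complement proteins are also made locally in the ovary and its follicles.

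Of the 9 components, C7 rose in HSD17B1-KI ovaries and the other 8 did not pass the test. Differential expression (DE) was called with limma-trend on log2(normalized count + 1), at a Benjamini-Hochberg adjusted p under 0.05 over 21525 genes. The 1 DE gene of 9 stands beside 0.214% of all genes tested, 46 genes, of which 45 (0.209%) were higher and 1 (0.00465%) lower in HSD17B1-KI. At an unadjusted p under 0.05, C2 and C7 were higher and C3 and C4b lower, 4 of 9 genes, while 5.36% of all genes passed as higher and 4.64% as lower. None of the 9 had groups that did not overlap, which 0.274% of all genes had with HSD17B1-KI higher and 0.0511% with HSD17B1-KI lower. The median log2 fold change of the 9 was 0.20, with a range from -0.98 to 2.41, and the median over all genes tested was -0.02. The components therefore did not move together. The study itself tied a group of higher transcripts from these same mice to the complement pathway, so that a complement gene found higher here is not independent evidence.

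**Figure D1:**
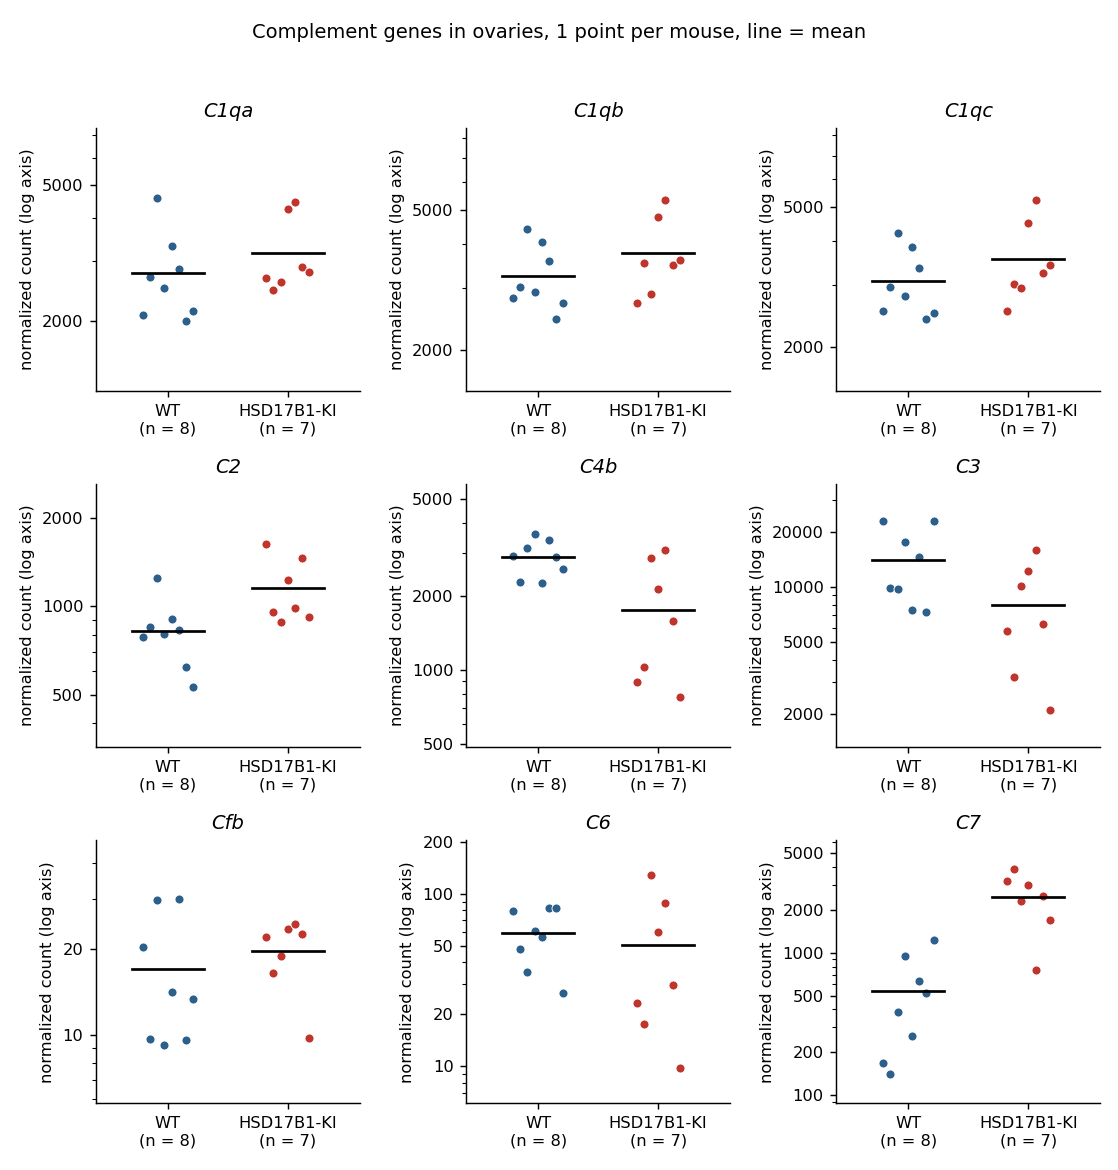
Normalized count (log axis) of each of the 9 complement components in WT (8 mice) and HSD17B1-KI (7 mice), with 1 point per mouse and a line at the mean of the group. C7 is the component with 6 of 7 HSD17B1-KI mice above every WT mouse, C4b and C3 reach their lowest values in HSD17B1-KI, and the 3 C1q genes overlap widely.

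C1qa, C1qb and C1qc, the recognition genes, did not pass the test between the genotypes and varied together from mouse to mouse. They lie side by side on the minus strand of chromosome 4 of GRCm38, in the order C1qb (ENSMUSG00000036905, 136880129 to 136886187), C1qc (ENSMUSG00000036896, 136889804 to 136893065) and C1qa (ENSMUSG00000036887, 136895917 to 136898803), a run of 18675 bases. C1qa was lowest at 2469.8, had a median of 2783 and was highest at 4444 normalized counts in HSD17B1-KI. In WT its lowest, median and highest values were 1995, 2588 and 4589.8. The groups overlapped over nearly their whole range, with HSD17B1-KI 4, HSD17B1-KI 5 and WT 3 the highest mice. C1qb was between 2712 and 5343 in HSD17B1-KI with a median of 3531, and between 2444 and 4424 in WT with a median of 2967. C1qc was between 2526 and 5245 in HSD17B1-KI with a median of 3249, and between 2403 and 4206 in WT with a median of 2883. For C1qb and C1qc the same 2 HSD17B1-KI mice, 4 and 5, were above every WT mouse. The log2 fold changes were 0.20 for C1qa (standard error 0.18, limma-trend adjusted p = 0.754), 0.20 for C1qb (standard error 0.16, adjusted p = 0.716) and 0.19 for C1qc (standard error 0.16, adjusted p = 0.732). Exact permutation tests of the 3 genes over all 6435 splits of the mice, two-sided and unadjusted, gave p = 0.306, 0.251 and 0.278. The log2 fold changes of C1qa, C1qb and C1qc were 0.60, 0.56 and 0.57 with the theca score as a term, and 0.0531, 0.0697 and 0.0473 with the surface epithelium and mesothelium score. They were 0.12, 0.11 and 0.0946 without HSD17B1-KI 5 and 0.32, 0.27 and 0.26 without WT 3.

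The proportions between the 3 chains differed between the genotypes by less than the spread between mice. Per kilobase of exon, C1qc stood to C1qb at a ratio of 0.533 ± 0.0281 in HSD17B1-KI (SD, n = 7) and 0.535 ± 0.0155 in WT (SD, n = 8). For C1qa to C1qb the ratio was 0.883 ± 0.0965 in HSD17B1-KI (SD, n = 7) and 0.882 ± 0.0943 in WT (SD, n = 8). The promoters of C1qb and C1qc are shown because these neighbours followed each other most closely of all pairs of components, with a Pearson r of 0.983 over 15 mice after subtraction of the genotype means. Each comes from the 250 bases before the RefSeq transcription start on GRCm38.p6, read on the minus strand. The RefSeq start of C1qc lies within the GENCODE gene, so that the last 151 bases of its window fall inside that gene and are not printed. They are shown with capitals at AGGAAGT or its reverse complement ACTTCCT, the core letters of sites bound by ETS factors such as PU.1 of myeloid cells.
C1qb, chr4:136886201-136886450: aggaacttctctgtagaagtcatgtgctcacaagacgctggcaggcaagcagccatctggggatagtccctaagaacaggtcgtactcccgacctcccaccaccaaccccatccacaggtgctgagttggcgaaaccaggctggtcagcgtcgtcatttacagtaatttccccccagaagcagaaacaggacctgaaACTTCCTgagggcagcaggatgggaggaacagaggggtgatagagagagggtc
C1qc, chr4:136893066-136893164: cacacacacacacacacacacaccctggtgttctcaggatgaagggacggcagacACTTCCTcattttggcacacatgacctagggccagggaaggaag
The match ends 46 bases before the RefSeq start of C1qb and 188 bases before that of C1qc, on the strand opposite to the gene in both. Promoter sequences were at hand for 5 of the 9 components, and the motif was found in these 2 of 5 and in 7.69% of 32851 promoter windows of the same length.

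C2 and C4b, whose proteins join in 1 enzyme complex, had differences of opposite sign, neither of which passed the adjusted test. C2 (ENSMUSG00000024371, chromosome 17, 34862604 to 34898265) was between 887 and 1632 normalized counts in HSD17B1-KI with a median of 984, and between 529.6 and 1249 in WT with a median of 816. Every one of the 7 HSD17B1-KI values exceeded the mean of WT, but only 2, in HSD17B1-KI 1 and 6, exceeded WT 3, the highest WT mouse. The mean of C2 was 1152 ± 294 (SD, n = 7) against 822 ± 213 (SD, n = 8), a ratio of 1.40, and a log2 fold change of 0.49 ± 0.17 (SE, adjusted p = 0.319 by limma-trend). The exact permutation test of C2 alone gave p = 0.0228, and p between 0.00117 (without WT 3) and 0.0506 (without HSD17B1-KI 1) when each mouse was left out.

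C4b (ENSMUSG00000073418, chromosome 17, 34728380 to 34743882) was between 775 and 3101 normalized counts in HSD17B1-KI with a median of 1579.9, and between 2261 and 3594 in WT with a median of 2902. HSD17B1-KI 7, 1, 2, 6 and 4 were below every WT mouse, while HSD17B1-KI 3 and 5 lay among the WT values. Its mean was 1768 ± 951 in HSD17B1-KI (SD, n = 7) and 2885 ± 487 in WT (SD, n = 8), a ratio of 0.613. The log2 fold change was -0.88 ± 0.27 (SE, adjusted p = 0.241 by limma-trend), and the exact permutation test of C4b alone gave p = 0.0113, or between 0.00233 and 0.0268 without each mouse. C4b has a near-identical copy, C4a, so that reads could have been assigned to either gene. C4a had 89.5 ± 28.8 normalized counts in HSD17B1-KI (SD, n = 7) and 80.8 ± 19.6 in WT (SD, n = 8).

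The ratio of C2 to C4b per kilobase was formed after the differences of both genes were known, so that it is given as a description and no test of it is reported. It was 1.28 ± 0.791 in HSD17B1-KI (SD, n = 7) and 0.428 ± 0.124 in WT (SD, n = 8), and 5 of 7 HSD17B1-KI values exceeded every WT value. The log2 fold change of C4b was -0.32 with the adipose and -0.15 with the theca marker score as a term, and that of C2 was 0.40 and 0.50.

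**Figure D2:**
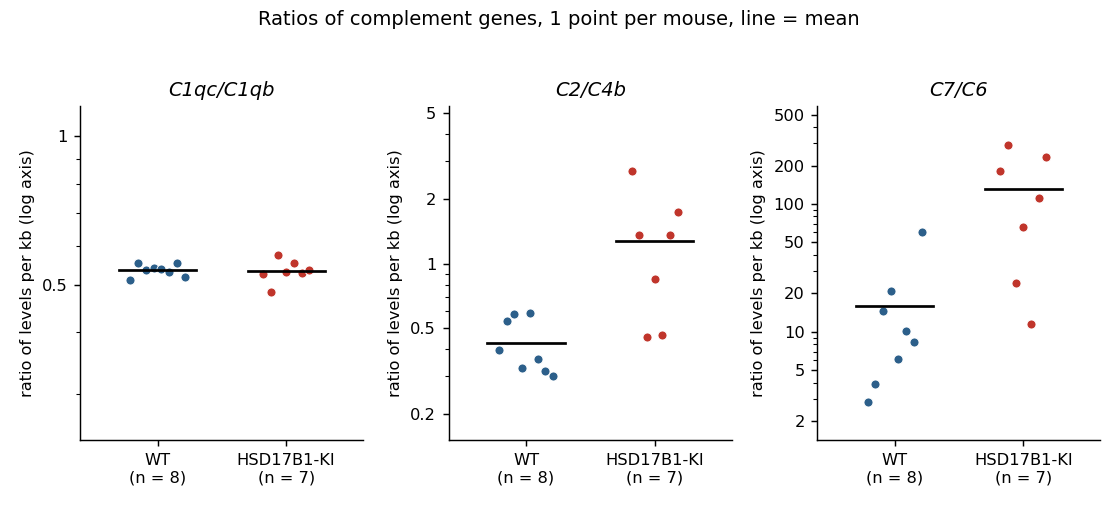
Ratio of levels per kilobase of exon (log axis) in each WT (8) and HSD17B1-KI (7) mouse for C1qc to C1qb, C2 to C4b and C7 to C6, with a line at the mean of the group. The C1q ratio stays between 0.483 and 0.575 in all mice, while 5 of 7 HSD17B1-KI mice exceed every WT mouse for both of the other ratios.

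C3, the central component, varied widely between mice in both genotypes. It lies on the minus strand of chromosome 17 (ENSMUSG00000024164, 57203970 to 57228136). C3 ranged in HSD17B1-KI from 2110.3 to 15992 normalized counts (median 6309.9). It ranged in WT from 7257 to 23048 (median 12294). HSD17B1-KI 7, 2, 1 and 6 were below every WT mouse, HSD17B1-KI 3, 4 and 5 lay within the WT range, and WT 1, WT 8 and WT 4 were above every HSD17B1-KI mouse. The mean was 7973 ± 5042 in HSD17B1-KI (SD, n = 7) and 14103 ± 6537 in WT (SD, n = 8), a log2 fold change of -0.98 ± 0.41 (SE, adjusted p = 0.432 by limma-trend). The exact permutation test of C3 alone gave p = 0.0486, and p reached 0.108 when 1 mouse was left out.

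Cfb, which encodes the catalytic part of the alternative convertase, was the lowest of the 9 per kilobase. It ends 86 bases before C2 on the same strand of chromosome 17 (ENSMUSG00000090231, 34856374 to 34862518). Cfb was between 9.76 and 24.4 normalized counts in HSD17B1-KI and between 9.26 and 30.0 in WT, from 8 to 29 reads per mouse. The log2 fold change was 0.29 ± 0.30 (SE, adjusted p = 0.802 by limma-trend), and it was 0.85 with the theca score as a term and from 0.19 without WT 4 to 0.44 without HSD17B1-KI 7 in the fits that leave out 1 mouse. Of its neighbour C2 there were between 29.4 and 68.8 times as many normalized counts per kilobase in the HSD17B1-KI mice and between 20.2 and 63.8 times as many in the WT mice. The annotation holds a read-through gene, Gm20547, over parts of both Cfb and C2, and Zbtb12 on the opposite strand of C2, and how reads in these stretches were assigned is not given in the sources used here. Zbtb12 had a log2 fold change of -0.04 (limma-trend adjusted p = 0.905).

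C7 was the 1 component that rose, by a mean of 4.60-fold. C7 binds C5b-6 and lets the growing attack complex insert into the membrane. It lies on the minus strand of chromosome 15 (ENSMUSG00000079105, 4988762 to 5063740). In HSD17B1-KI 1 to 7 the normalized counts of C7 were 3190.4, 3843, 2297, 2969, 756, 2498 and 1706. In WT 1 to 8 they were 169.7, 140.4, 384, 949.6, 259.6, 635, 522 and 1224. The 6 highest mice were all HSD17B1-KI, and HSD17B1-KI 5 lay between WT 6 and WT 4. At least 6 HSD17B1-KI mice above every WT mouse were found in 0.938% of all genes tested. The mean was 2466 ± 1017 in HSD17B1-KI (SD, n = 7) and 536 ± 386 in WT (SD, n = 8).

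C7 had a log2 fold change of 2.41 ± 0.46 (SE, adjusted p = 0.0468 by limma-trend). The exact permutation test of C7 alone gave p = 0.00109, between 0.000666 and 0.00233 when each mouse was left out. On the reads recovered from the table, DESeq2 gave an adjusted p of 0.000104 and edgeR one of 0.0581, with 2.30% and 0.232% of genes called by these tools. When each of the 15 mice was left out, C7 stayed DE with limma-trend only without HSD17B1-KI 5 or without WT 8. In the 13 other fits its log2 fold change was between 2.19 and 2.58 and its adjusted p between 0.0592 and 0.131.

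C6, which encodes the binding partner of C7, was low and did not pass the test. C6 (ENSMUSG00000022181, 4727175 to 4814967 on the plus strand of chromosome 15) ends 173795 bases before C7. Its normalized counts were between 9.76 and 128 in HSD17B1-KI with a median of 29.8, and between 26.7 and 83.1 in WT with a median of 58.2. HSD17B1-KI held both the highest mice, 3 and 5, and the lowest, 7, 2 and 1, so that the groups overlapped. The log2 fold change was -0.58 ± 0.47 (SE, adjusted p = 0.730 by limma-trend), and it changed sign in fits with the theca or the adipose marker score as a term. DESeq2 and edgeR both gave -0.20, and leaving out 1 mouse gave -0.28 without HSD17B1-KI 7 to -0.88 without HSD17B1-KI 3. Per kilobase, C7 stood to C6 at 131 ± 107 in HSD17B1-KI (SD, n = 7) and 16.0 ± 19.1 in WT (SD, n = 8). The WT mean leaned on WT 8 at 60.9, where the other WT mice were between 2.83 and 20.8. The ratio of C7 to C6 was also chosen with the values known, so that no test of it is reported. Mroh2b lies between the 2 genes and had 10.5 normalized counts in HSD17B1-KI and 8.16 in WT on average (limma-trend adjusted p = 0.858), and Card6 on the other side of C7 had 1319 and 1229.9 (adjusted p = 0.727).

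The promoters of C7 and C6 are shown because these genes of 1 complex, which lie on the same stretch of chromosome 15, are the one component that rose and its binding partner. Each comes from the 250 bases before the RefSeq start on GRCm38.p6, C7 read on the minus and C6 on the plus strand. The RefSeq start of C6 also lies within the GENCODE gene, with 35 bases of the window inside it, and C6 is printed up to the end of the motif, which is the first base of that gene. They are shown with capitals at AGGTCA or its reverse complement TGACCT, the core letters of sites bound by many nuclear receptors.
C7, chr15:5063774-5064023: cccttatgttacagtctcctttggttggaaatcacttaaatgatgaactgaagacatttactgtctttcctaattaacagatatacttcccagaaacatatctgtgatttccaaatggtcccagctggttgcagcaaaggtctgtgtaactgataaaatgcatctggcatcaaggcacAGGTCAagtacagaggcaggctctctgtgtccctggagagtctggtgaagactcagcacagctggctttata
C6, chr15:4726960-4727175: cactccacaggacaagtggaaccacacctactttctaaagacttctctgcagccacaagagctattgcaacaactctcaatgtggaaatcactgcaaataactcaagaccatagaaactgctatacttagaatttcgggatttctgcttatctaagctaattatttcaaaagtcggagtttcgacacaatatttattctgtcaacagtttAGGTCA
The match ends 66 bases before the RefSeq start of C7 and 34 bases before that of C6, on the strand of the gene in both. The motif was found in 4 of the 5 components searched (C1qc, C3, C6 and C7) and in 14.02% of the 32851 windows. TATAAA or its reverse complement was found in C7 alone of the 5, directly before the start, and in 12.4% of windows. TTNNGCAA or its reverse complement TTGCNNAA, the letters of C/EBP sites, was found in C3 alone, ending 37 bases before the start, and in 9.56% of windows.

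On the scale of normalized counts per kilobase of exon, the order of the components was led by C1qb and C3 in WT, and both C3 and C7 had another place in HSD17B1-KI. In WT the means per kilobase were 2979 ± 641 (SD, n = 8) for C1qb, 2742 ± 1271 for C3, 2659.6 ± 827 for C1qa and 1594 ± 346 for C1qc. They were followed by C4b at 507 ± 85.6, C2 at 212 ± 54.9, C7 at 200.1 ± 144, C6 at 16.6 ± 6.11 and Cfb at 6.03 ± 3.08. C1qb was above C3 in 5 of 8 WT mice, C3 above C1qa in 4 of 8 and C2 above C7 in 4 of 8, so that these neighbours were not separated beyond the spread between mice, while C1qa was above C1qc and C4b above C2 in all 8. In HSD17B1-KI, C7 at 921 ± 380.0 (SD, n = 7) had a higher mean than C4b at 310.4 ± 167 and C2 at 298 ± 76.0, and C2 was above C7 in 0 of 7 mice. C4b was above C2 in 3 of 7 HSD17B1-KI mice. C3 at 1550.3 ± 980.3 had a lower mean there than C1qa at 3034 ± 790.5 and C1qc at 1841 ± 499, and was above C1qa in 0 of 7 mice.

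**Figure D3:**
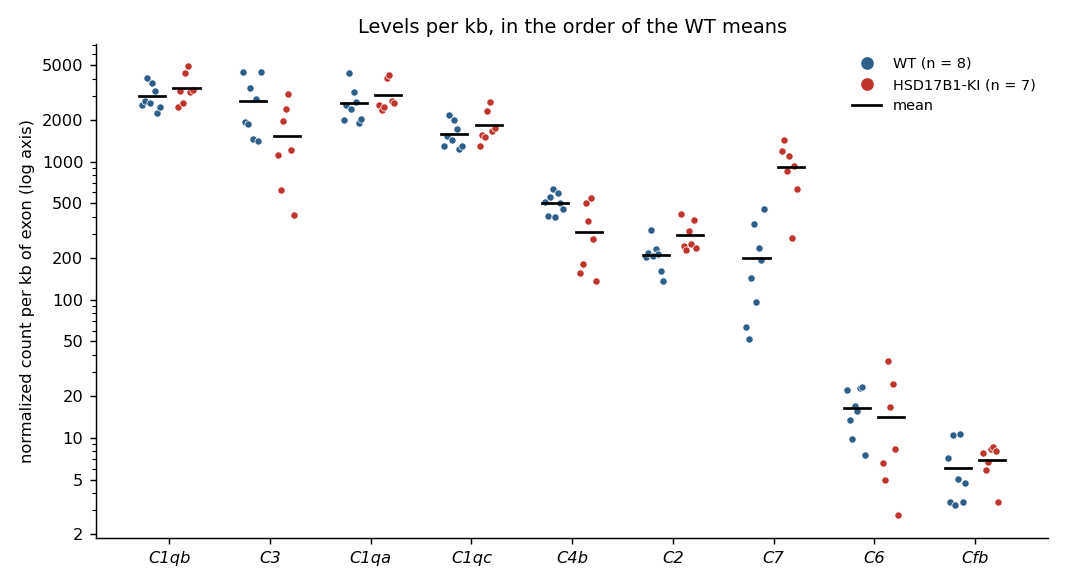
Normalized count per kilobase of exon (log axis) of the 9 components in each WT (8) and HSD17B1-KI (7) mouse, in the order of the WT means, with a line at the mean of the group. C7 moves from 200.1 in WT to 921 in HSD17B1-KI, while C6 and Cfb stay at the lower end in both groups.

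Among the other genes of the classical pathway, which together with C1q, C2 and C4b make a list of 10, none was DE with limma-trend. C1ra and C1s1, the proteases carried by C1q, had 4545 ± 899 and 13396 ± 3300.0 normalized counts in HSD17B1-KI (SD, n = 7) and 4207 ± 902 and 14946 ± 3519 in WT (SD, n = 8). C1s2, a low copy related to C1s1, was between 14.3 and 32.9 in HSD17B1-KI and between 23.6 and 69.6 in WT. Every one of the 7 HSD17B1-KI values of C1s2 lay under the mean of WT, and its log2 fold change was -0.85 ± 0.26 (SE), with an adjusted p of 0.218 from limma-trend and 0.0452 from DESeq2. Its reads could be shared with C1s1.

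The lectin pathway list had 6 of its 8 genes in the table, with Mbl1 and Fcnb not analysed here. With limma-trend or DESeq2 0 of 6 were DE, and 1 was higher at an unadjusted p under 0.05, beside 5.36% of all genes tested. That gene was Fcna, the recognition protein ficolin A, with a mean of 149 ± 45.1 (SD, n = 7) against 101 ± 36.9 (SD, n = 8), a log2 fold change of 0.58 ± 0.25 (SE, adjusted p = 0.452 by limma-trend). Colec11 and Masp1, a collectin and its protease, had 641 ± 115 and 1437 ± 729 normalized counts in HSD17B1-KI (SD, n = 7) and 537 ± 144 and 1267 ± 413 in WT (SD, n = 8).

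Of the 4 genes of C3 and the alternative pathway none was DE with limma-trend, edgeR or DESeq2. At an unadjusted p under 0.05, 2 of the 4 were lower, beside 4.64% of all genes tested. Cfd, the adipose protease factor D that activates factor B, ranged from 96.5 to 3365 normalized counts in HSD17B1-KI and from 725 to 4730.2 in WT. HSD17B1-KI 7 and 2 were below every WT mouse, and the log2 fold change was -1.62 ± 0.63 (SE, adjusted p = 0.388 by limma-trend). DESeq2 gave -1.13 (adjusted p = 0.342). HSD17B1-KI 7 had the lowest Cfd and also the lowest summed adipose markers of all mice, 2567 normalized counts. Cfp, the stabilizer properdin, was even across all mice, with 1598 ± 142 (SD, n = 7) and 1563 ± 181 (SD, n = 8). In the terminal pathway, C7 was the 1 DE gene of 6 tested. Hc, which encodes C5, had 142 ± 92.2 (SD, n = 7) against 225 ± 106 (SD, n = 8), a log2 fold change of -0.79 ± 0.39 (SE, adjusted p = 0.523 by limma-trend). C8a, C8b and C8g, the subunits of C8, reached at most 5.81, 26.2 and 88.3 normalized counts in HSD17B1-KI and 12.9, 22.8 and 100.1 in WT. C9, the pore-forming unit, had at most 3 reads in any mouse and was not tested.

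Clu, the soluble inhibitor clusterin that keeps the C5b-7 complex out of membranes, was called as higher in HSD17B1-KI by edgeR and DESeq2 and not by limma-trend. It was between 55227 and 120416 normalized counts in HSD17B1-KI with a median of 76068, and between 39319.8 and 56116 in WT with a median of 47775. As with C7, 6 of 7 values in HSD17B1-KI exceeded every WT value, and HSD17B1-KI 5 was the exception. The log2 fold change of Clu was 0.75 ± 0.15 (SE), and its adjusted p was 0.0554 with limma-trend, 0.0465 with edgeR and 0.00024 with DESeq2. It was DE with limma-trend when HSD17B1-KI 5 was left out (adjusted p = 0.0159).

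The other regulators and the receptors gave no DE gene with limma-trend, edgeR or DESeq2. Serping1, the C1 inhibitor, had 7395 ± 1448 normalized counts in HSD17B1-KI (SD, n = 7) and 7435 ± 635 in WT (SD, n = 8). Cfi, the protease factor I that degrades C3b and C4b, was between 5.42 and 98.7 in HSD17B1-KI and between 19.7 and 1246 in WT, with WT 1 and WT 8 far above the rest (log2 fold change -1.49, limma-trend adjusted p = 0.647). DESeq2 gave -2.61 (adjusted p = 0.112). The summed oviduct markers ranged from 1172 to 26314 normalized counts in HSD17B1-KI and from 1287 to 234514 in WT, and with the oviduct score as a term the log2 fold change of Cfi was -0.79, while with the surface epithelium and mesothelium score it was 0.61. Cpn1, a subunit of carboxypeptidase N, was between 1.08 and 88.3 in HSD17B1-KI and between 1.25 and 265 in WT (log2 fold change -0.72, limma-trend adjusted p = 0.883). That value was 0.24 with the oviduct, 0.0874 with the adipose and 1.38 with the surface epithelium and mesothelium score as a term.

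The membrane inhibitors Cd55, Cd59a and Cr1l had 1895 ± 391, 2402 ± 518 and 3517 ± 178 normalized counts in HSD17B1-KI (SD, n = 7). In WT they had 2021 ± 764, 1973 ± 501 and 3536 ± 171 (SD, n = 8). Cr1l encodes the rodent regulator Crry, and its range was 3260.1 to 3759 in HSD17B1-KI and 3328 to 3807 in WT. The receptors C3ar1 and C5ar1 had 552 ± 186 and 213 ± 68.5 (SD, n = 7) against 491 ± 136 and 231 ± 49.4 (SD, n = 8). Itgam, the alpha chain of complement receptor 3, had 384 ± 154 (SD, n = 7) against 486 ± 104 (SD, n = 8). Vsig4, a macrophage receptor of C3b, was low, with 9.78 ± 6.79 (SD, n = 7) and 14.6 ± 6.40 (SD, n = 8) and a log2 fold change of -0.64 ± 0.40 (SE, adjusted p = 0.638 by limma-trend). It rested on 2 to 26 reads per mouse. Its values ran from 2.17 in HSD17B1-KI 7 to 23.8 in HSD17B1-KI 6, so that single mice moved this difference. Over the 8 receptor genes the log2 fold changes ran from -0.64 to 0.51.

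**Figure D4:**
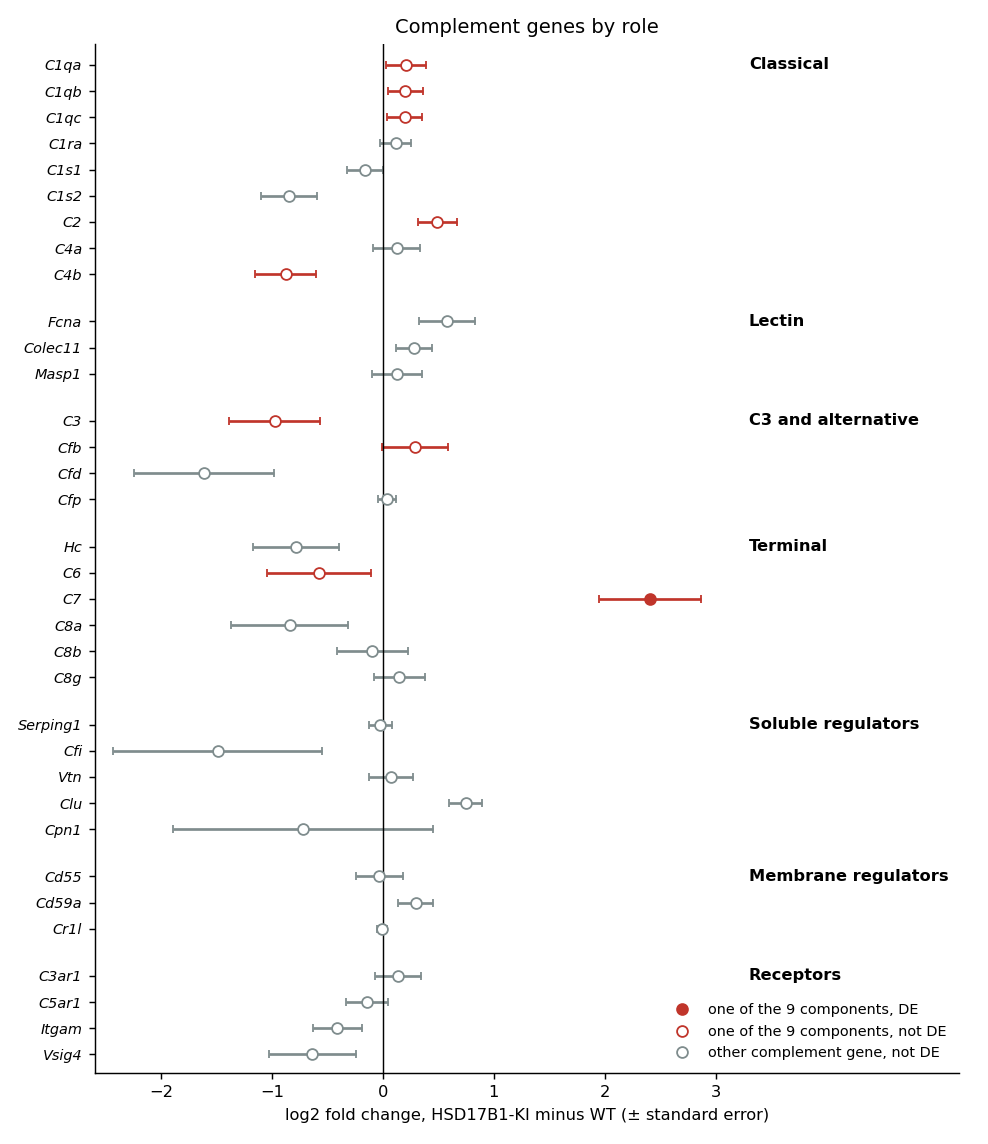
Log2 fold change (HSD17B1-KI minus WT, with standard error) of the 9 components in red and of other complement genes in grey, grouped by role, with a filled point for DE. C7 at 2.41 is the filled point, Clu at 0.75 has a narrow error beside it among the soluble regulators, and Cfd and Cfi have the lowest values with wide errors.

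Over all 7 lists of the complement system, 53 genes were in the table and 50 were tested. With limma-trend 1 gene was DE, with edgeR 1 (Clu) and with DESeq2 3 (C7, Clu and C1s2). Of all genes tested, these tools called 0.214%, 0.232% and 2.30%. The median log2 fold change of the 50 was 0.05, with 26 positive and 24 negative values, beside 9649 and 11876 over all genes tested. Lists of inducers gave no DE gene. Of 14 interferon response genes, which include drivers of C2, Cfb and C4b, 0 were DE with limma-trend, edgeR or DESeq2, 0 had an unadjusted p under 0.05, and the median log2 fold change was -0.03. WT 3, the highest WT mouse for C2, stood apart with a summed level of 39540.4 normalized counts for this list, where the other 14 mice were between 13027 and 22514. The part of this mouse in the difference of C2 was not tested beyond leaving it out, as given above. Of 8 acute phase and IL-6 genes 0 were DE by the same tools, 1 was lower at an unadjusted p under 0.05 (4.64% of all genes), and the median was -0.20. In that list Saa3 had 127 ± 55.5 (SD, n = 7) against 278 ± 197 (SD, n = 8), a log2 fold change of -0.88 (limma-trend adjusted p = 0.483). Hp, which encodes haptoglobin, had 923 ± 689 (SD, n = 7) against 1844 ± 1432 (SD, n = 8), a log2 fold change of -1.18 (limma-trend adjusted p = 0.560). WT 1 and WT 8 stood apart in this list, with sums of 17026 and 16883 normalized counts where the other 13 mice reached at most 10118. The log2 fold change of Hp was -1.003 without WT 1, -0.95 without WT 8 and -0.81 with the oviduct score as a term.

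Because whole ovaries were sequenced, fewer cells of a type and less RNA per cell cannot be told apart in any of these values. Each component was therefore set beside markers of 4 cell types, as the mean centred log2 value of the list in each mouse, with the genotype means subtracted from both. This gave 36 relations over 15 mice. Permutations within the genotypes were two-sided, and 6 Pearson and 5 Spearman values had an adjusted p under 0.05 over the 36. The adipose and the surface epithelium and mesothelium scores were added after seeing the data, and the adjustment does not cover that choice. The adipose list holds Cidec, Adipoq and Fabp4, and the surface epithelium list holds Upk3b, which are among the genes most like C6 and C3. The p-values of these 2 scores are therefore a description.

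The C1q genes followed the macrophage markers. For C1qc, r was 0.897 (permutation p = 6e-05, adjusted 0.00108) and rho 0.754 (p = 0.00299, adjusted 0.0269) over 15 mice, and r was 0.934 within HSD17B1-KI and 0.847 within WT. Without the 2 mice farthest out on the marker score, HSD17B1-KI 5 and WT 5, r was 0.837. C1qb gave r = 0.863 (permutation p = 0.0002, adjusted 0.0018) and rho = 0.739 (p = 0.00388, adjusted 0.0279), with r = 0.788 without those mice. C1qa gave r = 0.762 (permutation p = 0.00127, adjusted 0.00914) and rho = 0.596 (p = 0.0239, adjusted 0.123), with r = 0.682 without them. With the theca markers the C1q genes gave negative values, with r = -0.551 for C1qa (permutation p = 0.0329, adjusted 0.111), -0.576 for C1qb (p = 0.0356, adjusted 0.111) and -0.588 for C1qc (p = 0.0315, adjusted 0.111). The rho values were -0.325 (p = 0.232, adjusted 0.379), -0.371 (p = 0.196, adjusted 0.336) and -0.386 (p = 0.173, adjusted 0.324). These r were -0.984, -0.925 and -0.949 within HSD17B1-KI and -0.124, -0.0648 and -0.0432 within WT, and -0.265, -0.260 and -0.261 without HSD17B1-KI 5 and 4, so that they rest on those mice. The 11 macrophage markers were all detected, 0 were DE with limma-trend, edgeR or DESeq2, 0 had an unadjusted p under 0.05, and their sum ranged from 14792 to 38748 normalized counts in HSD17B1-KI and from 19135 to 33078 in WT.

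C6 followed the adipose markers, with r = 0.939 (permutation p = 3e-05, adjusted 0.00108) and rho = 0.932 (p = 5e-05, adjusted 0.0018). It was 0.970 within HSD17B1-KI, 0.839 within WT and 0.938 without HSD17B1-KI 7 and WT 3. C4b gave r = 0.804 (permutation p = 0.00383, adjusted 0.0230) and rho = 0.757 (p = 0.00966, adjusted 0.0580) with the same markers, with r = 0.870 without those mice. For C4b r was 0.952 within HSD17B1-KI and 0.139 within WT. With the theca markers C4b gave r = -0.655 (permutation p = 0.0212, adjusted 0.109) and rho = -0.761 (p = 0.00167, adjusted 0.0200), with r = -0.469 without HSD17B1-KI 5 and 4. C3 gave r = 0.647 (permutation p = 0.0244, adjusted 0.110) and rho = 0.614 (p = 0.0339, adjusted 0.136) with the adipose markers, with r = 0.462 without HSD17B1-KI 7 and WT 3, 0.904 within HSD17B1-KI and 0.0227 within WT. Of the 6 adipose markers 0 were DE with limma-trend, edgeR or DESeq2, and 5 were lower and 1, Plin1, higher at an unadjusted p under 0.05. At that level 4.64% of all genes were lower and 5.36% higher. Adipoq, the fat hormone adiponectin, had a log2 fold change of -1.82 (limma-trend adjusted p = 0.328), and the summed list ranged from 2567 to 9092 normalized counts in HSD17B1-KI and from 3296 to 11638 in WT. With the adipose score as a term the log2 fold change of C4b was -0.32 and that of C3 was -0.30.

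C3 followed the markers of surface epithelium and mesothelium, the cell layer that covers the ovary and the cavity around it. There r was 0.729 (permutation p = 0.00015, adjusted 0.0018) and rho 0.721 (p = 0.00136, adjusted 0.0200), with 0.776 within HSD17B1-KI, 0.913 within WT and 0.717 without WT 1 and WT 8. All 8 of these markers had negative log2 fold changes, as did 11876 of the 21525 genes tested. Of the 8, 0 were DE with limma-trend, edgeR or DESeq2 and 4 had an unadjusted p under 0.05 (4.64% of all genes as lower). Their sum ranged from 11464 to 19022 in HSD17B1-KI and from 13770.0 to 39679.6 in WT. With this score as a term the log2 fold change of C3 was -0.24. WT 1 and WT 8, the highest mice for this sum and for C3, also had the highest summed oviduct markers, 234514 and 156391, and with the oviduct score as a term the log2 fold change of C3 was -0.85.

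None of the 4 relations of C7 had an adjusted p under 0.05. Its r with the macrophage markers was -0.418 (permutation p = 0.117, adjusted 0.30) and rho -0.450 (p = 0.0986, adjusted 0.254), with -0.745 within HSD17B1-KI, -0.198 within WT and r = -0.129 without HSD17B1-KI 5 and WT 5. With the surface epithelium and mesothelium markers r was 0.203 (permutation p = 0.532, adjusted 0.710) and rho 0.418 (p = 0.166, adjusted 0.324), with r = 0.374 without WT 1 and WT 8. With the adipose markers r was -0.105 (permutation p = 0.689, adjusted 0.826) and rho -0.143 (p = 0.594, adjusted 0.713), with r = -0.267 without HSD17B1-KI 7 and WT 3. With the theca and interstitial markers r was 0.0170 (permutation p = 0.951, adjusted 0.979) and rho -0.0893 (p = 0.752, adjusted 0.820), with 0.541 within HSD17B1-KI, -0.435 within WT and r = -0.271 without HSD17B1-KI 5 and 4. Between the genotypes, 1 of the 6 theca genes, the retinaldehyde dehydrogenase Aldh1a1, was DE as higher (log2 fold change 1.02, limma-trend adjusted p = 0.0276), and DESeq2 also called Insl3 (adjusted p = 0.00234). The theca scores of HSD17B1-KI 4 and 5, -0.34 and -0.41, lay among those of WT. Their summed theca counts, 812432 and 653635, were above every WT mouse, so that the score and the sum place these mice differently. The summed list ranged from 545816 to 812432 in HSD17B1-KI and from 312588 to 566470.0 in WT. With the theca score as a term the log2 fold change of C7 was 2.38 with an adjusted p of 0.154 from limma-trend, while that of C4b was -0.15 and that of C3 was -0.05. Of the 5 hepatocyte markers, Alb, Ttr, Fgb and Serpina1a reached at most 392, 38.3, 11.4 and 25.0 normalized counts in any mouse, while Apoa1 was between 746 and 1907 in HSD17B1-KI and between 735 and 2374 in WT.

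**Figure D5:**
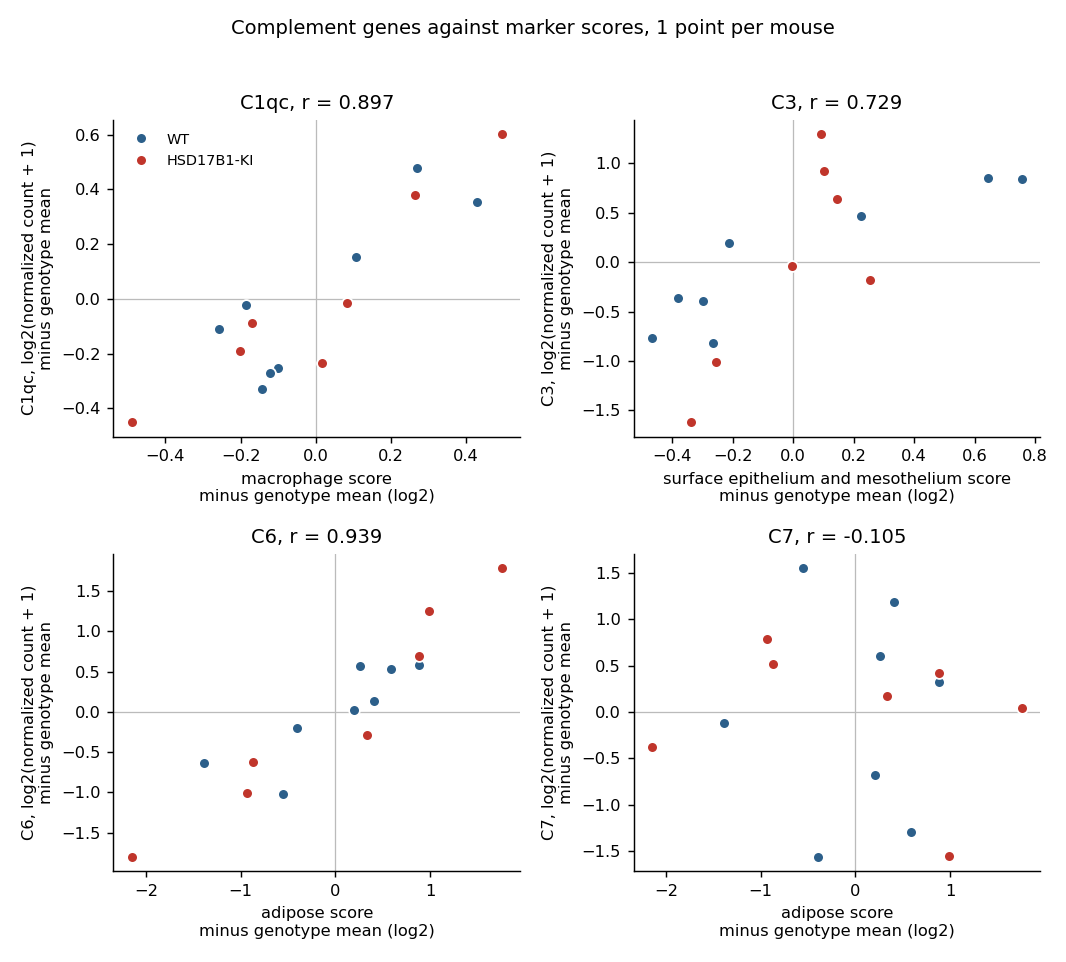
C1qc, C3, C6 and C7 as log2(normalized count + 1), each against 1 marker score (mean centred log2 value of the list), both with the genotype mean subtracted, for 8 WT and 7 HSD17B1-KI mice. C1qc rises with the macrophage score (r = 0.897), C3 with that of surface epithelium and mesothelium (0.729) and C6 with the adipose score (0.939), while C7 shows no trend with the adipose score (-0.105). The r of C7 farthest from 0, with the macrophage score (-0.418), is not drawn.

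The genes most like C1qa, C3, C6 and C7 were then listed as a description, by Pearson r over the 15 mice with the genotype means subtracted, among the 15059 genes that averaged 50 normalized counts or more. For C1qa these were the Fc receptor chain Fcer1g (0.966), C1qc (0.939), Ms4a6b (0.924), Ifnar2 (0.922) and C1qb (0.916). C3 was most like Upk3b (0.908), a mesothelial membrane gene, and then Cldn15 (0.860), Slpi (0.854), C1qtnf9 (0.853) and Medag (0.846). C6 was most like the carbonic anhydrase Car3 (0.957), the beta-3 adrenoceptor Adrb3 (0.942), Cidec (0.937), Adipoq (0.936) and Fabp4 (0.928), genes of fat cells. C7 was most like the zinc finger gene Zbtb16 (0.908), followed by Hephl1 (0.867), Plcxd2 (0.865), the thyroid hormone receptor Thra (0.858) and Paqr9 (0.856). None of these 5 was DE with limma-trend, with adjusted p-values between 0.110 and 0.998, and DESeq2 called Paqr9 (adjusted p = 0.00595). Their log2 fold changes ran from -0.0041 for Zbtb16 to 1.08 for Paqr9.

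The other neighbours of the components on the chromosome were not DE either. Ephb2 and Epha8 flank the C1q run, with log2 fold changes of -0.85 (limma-trend adjusted p = 0.563) and -0.54 (adjusted p = 0.774). Nelfe and Ehmt2 flank Cfb and C2 at 2 and 204 bases, with log2 fold changes of 0.07 (limma-trend adjusted p = 0.743) and 0.10 (adjusted p = 0.499). Tnxb and Cyp21a1 lie on either side of C4b, Tnfsf14 and Gpr108 on either side of C3, and Plcxd3 beyond C6, with limma-trend adjusted p-values between 0.399 and 0.984.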

How the data were processed

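Ovarian mRNA of 7 HSD17B1-KI and 8 WT mice was analysed, with 1 library per mouse. The authors trimmed the reads with Skewer, aligned them with STAR 2.7.3 to mm10, counted them on genes and deposited a normalized signal, which is gene counts scaled by 1 size factor for each library. The counting program, the annotation and the use of strand are not given in the sources used here. Division by the smallest step gave whole reads for 100% of values (tolerance 0.01 reads), used for edgeR 4.0.16 and DESeq2 1.42.0.

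limma-trend (limma 3.58.1, R 4.3.3) was fitted on log2(normalized count + 1) to the 21525 genes that averaged 2 normalized counts or more, genotype as the only term, two-sided, with Benjamini-Hochberg adjustment over all of them at 0.05. A fold change on this scale understates that of low genes. Single values were compared by exact permutation tests over 6435 splits (smallest p 0.000155) and are unadjusted. Correlations used 100000 permutations within the genotypes. The scripts were tested on simulated data. Alternatives were a pseudocount of 0.1 or 10, other filters, scalings, thresholds and tools, array weights, a replicate block, marker scores as covariates and leaving out each mouse. The adipose and the surface epithelium and mesothelium scores were added after seeing the data. Whether mice shared litters is not given.

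The members and lists were chosen with earlier results of these data known. Named were the 9 components, other complement or inducer genes that were DE with limma-trend or DESeq2, or had an absolute log2 fold change of at least 0.5 and a mean of at least 10, the defining gene of each step, markers, neighbours, and the 5 genes most like C1qa, C3, C6 and C7; C1qb with C1qc was added after its value was seen. Positions and exon lengths came from GENCODE release M21 (GRCm38), which held 27533 of the 27907 identifiers, and promoters from RefSeq. Other marker lists (neutrophil, T and B cell, stroma, granulosa, luteal, endothelium, erythroid) gave 0 genes DE with limma-trend, edgeR or DESeq2, with 0 to 1 at an unadjusted p under 0.05 in each (10.0% of all genes, either direction). A further gene of the system is not reported here.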

Additional observations from a re-analysis of the deposited data

Results flagged for a closer look

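In groups of 7 or 8 mice, 74 sets of values (2 genotypes for 37 genes) were screened for a single mouse far from the rest. Chance alone was taken to give this in about 1 of 20 sets, a rate not tested on these counts, and 4 sets were found. None was one of the 9 components. Masp1 was at 3060.3 normalized counts in HSD17B1-KI 7, where the other HSD17B1-KI mice were between 1006 and 1432, and at 2215 in WT 4, where the others were between 867 and 1308. Vsig4 was at 23.8 in HSD17B1-KI 6, where the others reached at most 10.98. Saa3 was at 249.7 in HSD17B1-KI 1, where the others were between 86.5 and 121. What set these mice apart was not tested.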

How the results depend on the processing

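Of 270 values of the log2 fold change of the 9 components under alternatives, 247 kept their direction and their side of the threshold, 21 no longer passed it and 2 changed sign. All 21 were C7, whose log2 fold change was between 2.19 and 2.67 over the alternatives. C7 was not DE, and 0 of 9 components were called, with no filter (adjusted p = 0.0557), quantile normalization (0.0603), edgeR (0.0581), the oviduct (0.0526), theca (0.154), adipose (0.344) or surface epithelium (0.202) score as a covariate, and the replicate block (0.258). The 2 changes of sign were C6, at 0.17 with the theca and 0.52 with the adipose score. Of other genes, Cfi was at 0.61 with the surface epithelium score, and Cpn1 at 0.24, 0.0874 and 1.38 with the oviduct, adipose and surface epithelium scores. Leaving out each mouse gave 0 to 1 components, 0 to 2 complement genes, 0 inducer genes, 2 to 4 exact tests of components under 0.05 against 4 with all mice (the 2 without HSD17B1-KI 1) and 6 (without HSD17B1-KI 2) to 139 (without HSD17B1-KI 5) DE genes in all.

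Of all complement genes, 1 was DE in the reported test, 2 with array weights or at an adjusted p under 0.1, 3 with DESeq2 (C7, Clu and C1s2) or the macrophage score (C7, Clu and Itgam), 1 with edgeR (Clu), and 0 with no filter, quantile normalization, the replicate block and the oviduct, theca, adipose and surface epithelium scores. Of all genes, 46 were DE as reported, 28 with no filter, 28 with quantile normalization, 125 with array weights, 456 with DESeq2, 0 with the replicate block, 205 with the macrophage, 7 with the theca, 0 with the adipose and 2 with the surface epithelium score, and 146 at an adjusted p under 0.1. The cause of these changes was not tested. Mice with the same replicate number were not paired by the labels, and correlations of same-numbered deviations ran from -0.548 to 0.550, so that the replicate block shares a number only. It also leaves WT 8 without a partner. Cfb, C8a, C8b, Vsig4 and C9 had at most 33 reads in any mouse, and the share of counting error in their spread was not tested.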
